A study of Mus musculus with 31 samples.

Results

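The genes of cholesterol synthesis and homeostasis were followed through the mammary lesions of K5ΔNβcat mice and in sorted mammary basal cells lacking Myc. The 31 members were listed by symbol, and their probe sets on the Affymetrix mouse genome array were taken from the array's annotation. A probe set naming 1 gene alone was found for 28 of the 31 members, among 18193 genes named in this way, with 60 probe sets in all and more than 1 for 17 members. Acat2, Soat1 and Nr1h2 had no such probe set and were not analysed here. The members were ordered by role into mevalonate steps, squalene and sterol steps, control of the pathway, and transport, storage and export.

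K5ΔNβcat mice express a stabilized, constitutively active β-catenin under the keratin 5 promoter, which is active in the basal layer of the mammary epithelium. Whole tissue was profiled from 11 tumors, 5 small hyperplasias and 5 large hyperplasias of these mice and from 4 samples of control tissue of control mice. Sorted mammary basal cells, taken as CD24-positive cells with high CD49f, came from 3 pools of control mice and 3 pools of K5creMycL/L mice, in which Cre under the keratin 5 promoter deletes Myc and no β-catenin transgene is listed; each pool held 4 to 6 mice. Every sample is labelled C57BL6, whereas the study's methods give a mixed 129SV/C57BL6 background, and neither the labels nor the methods give the ages of the mice on the arrays. The labels do not say that each tissue sample came from its own animal, so that p-values measure only the spread between these samples.

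Cholesterol is built from acetyl-CoA by way of mevalonate, isoprenoid diphosphates and squalene, and the first sterol is trimmed to cholesterol in a further series of steps. The genes of these enzymes are switched on together by sterol regulatory element-binding proteins, the products of Srebf2 and, mainly for fatty acid genes, Srebf1. The escort protein encoded by Scap carries these factors out of the endoplasmic reticulum for cleavage, and the products of Insig1 and Insig2 hold the complex back when sterols are plentiful. Insig1 is itself a target of the factors, which closes a feedback loop. Oxysterols activate the liver X receptors, which raise Abca1 and Abcg1, the transporters that export cholesterol from cells.

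The sterol factors work beside NF-Y, which binds CCAAT boxes, and Sp1, so promoter letters of members that moved were read in windows of 300 bases, from 250 bases before to 50 bases after the start of a gene, in RefSeq annotation of GRCm38.p6. The 250 bases upstream of the start are shown, on the strand of the gene, for Hmgcs1, Idi1, Hsd17b7 and Insig1. Hmgcs1 was the only member with the form of the sterol element that was searched. Idi1 and Hsd17b7 rose strongly in tumors, and Insig1 fell. Capitals mark CCAAT in either orientation (ATTGG is its reverse complement) and, in Hmgcs1, the sterol regulatory element core TCACNCCAC; the marked stretches do not overlap.
Hmgcs1, chr13:119690101-119690350, plus strand: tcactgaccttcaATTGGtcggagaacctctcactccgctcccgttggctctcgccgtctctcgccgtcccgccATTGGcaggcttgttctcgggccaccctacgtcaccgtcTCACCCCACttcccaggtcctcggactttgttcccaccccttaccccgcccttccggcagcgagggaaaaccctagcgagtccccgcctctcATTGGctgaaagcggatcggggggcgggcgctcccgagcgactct
Idi1, chr13:8885356-8885605, plus strand: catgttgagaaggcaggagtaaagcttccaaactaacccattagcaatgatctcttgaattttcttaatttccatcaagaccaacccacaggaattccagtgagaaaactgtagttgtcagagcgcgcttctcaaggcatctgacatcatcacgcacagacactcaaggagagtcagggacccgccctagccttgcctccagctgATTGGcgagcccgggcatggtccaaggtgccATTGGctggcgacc
Hsd17b7, chr1:169969206-169969455, minus strand: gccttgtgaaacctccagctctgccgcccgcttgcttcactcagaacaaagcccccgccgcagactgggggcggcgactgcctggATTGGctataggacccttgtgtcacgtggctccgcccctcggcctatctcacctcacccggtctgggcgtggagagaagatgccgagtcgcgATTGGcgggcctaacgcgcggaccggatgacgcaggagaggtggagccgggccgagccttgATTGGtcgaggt
Insig1, chr5:28071162-28071411, plus strand: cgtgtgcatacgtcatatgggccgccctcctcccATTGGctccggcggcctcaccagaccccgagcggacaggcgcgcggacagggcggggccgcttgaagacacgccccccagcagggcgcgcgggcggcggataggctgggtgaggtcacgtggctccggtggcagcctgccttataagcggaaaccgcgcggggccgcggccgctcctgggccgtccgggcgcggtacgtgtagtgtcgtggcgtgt

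At least 1 window was listed for 25 of the 31 members, and none for Fdps, Fdft1, Sqle, Stard4, Npc1 and Abcg1. Some members have several starts, so that the 25 members had 33 windows. CCAAT was found on either strand in at least 1 window of 21 of the 25 members (84.0%), compared with 42.4% of 9764 genes tested in these data. Counted by window it was in 22 of the members' 33 (66.7%), in 37.1% of those of tested genes and in 37.4% of all 32851. The 4 members without it were Abca1, Acat2, Nr1h2 and Scap. The Sp1 letters GGGCGG were present in 23 of 25 members (92.0%) and in 67.8% of tested genes. The E-box CACGTG, letters that Myc can bind, was found in 6 members (24.0%), Abca1, Dhcr7, Hsd17b7, Insig1, Sc5d and Scap, and in 11.7% of tested genes. The sterol element core, also searched in 1 form only, was found in Hmgcs1 alone, 1 of 25 members (4.00%), against 1.37% of tested genes. Other forms of the sterol element were not searched, so members without this form may hold another. The direct repeat bound by liver X receptors, spaced by any 4 bases, was searched in 1 exact form only. This form was in none of the members, but also in only 1 of 9764 tested genes and 5 of all 32851 windows. It is too rare for its absence to set the members apart, and other forms of the element were not searched. All motifs were searched on both strands, and a match describes letters, not binding.

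The values are MAS5 signals, which the authors computed from the scanned arrays on a linear scale and scaled to a trimmed mean of 100 on each array. Differences are log2 of the signal plus 16, an offset that makes the changes of dim genes smaller than their ratios. A gene is shown by its brightest probe set and was tested with limma if at least 1 of the compared groups had a median of 30 or more, lower signals being background in the study's methods. Calls were made at a p under 0.05 after Benjamini-Hochberg adjustment over all probe sets tested. Median signals of the tissue arrays ranged from 23.9 to 32.9, and 46.2% to 51.9% of the probe sets reached 30. All 28 measured members were tested in tissue.

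In tumors, most enzymes of the pathway were higher than in control tissue, whereas the regulators Insig1 and Srebf1 were lower. Of the 28 members tested, 16 rose and 4 fell, against a background of 35.0% of 11831 genes called higher and 36.8% called lower. The median log2 difference of the members was 0.50, and that of all genes was -0.02. The largest rises in log2 difference were in Hsd17b7, Cyp51, Sqle and Idi1, which act at different points from the isoprenoid building block to the late sterols. The group means of these 4 genes in tumors were 4.39 to 7.12 times those of control tissue. That of Mvd was 6.12 times the control mean, with every control sample below 30. By the rule of the study's methods, a ratio of medians over 2, 8 members were higher and 2 lower, beside 16.2% and 16.4% of genes.

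**Figure D1:**
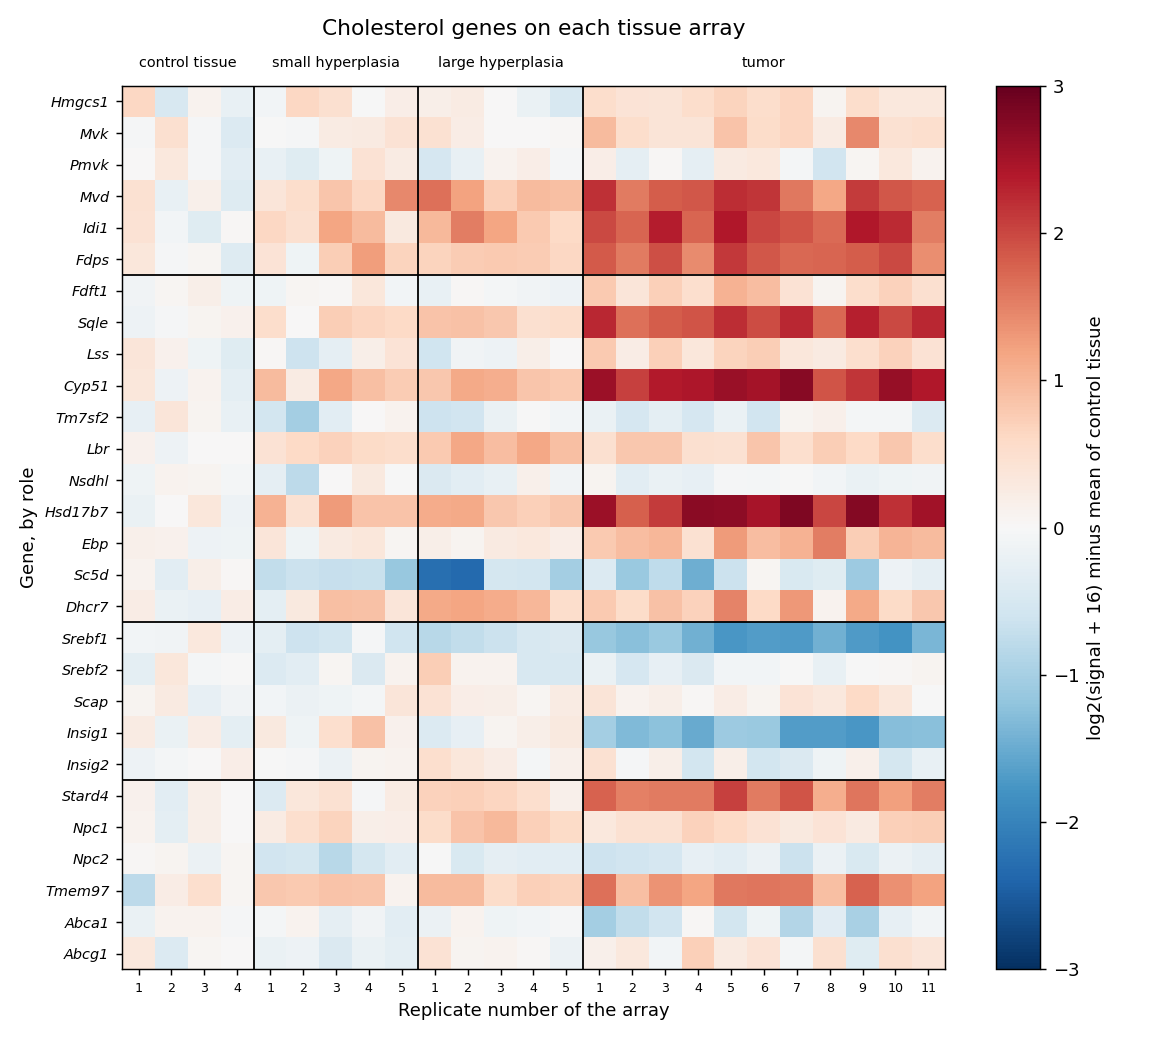
Heat map of log2(signal + 16) minus the mean of the 4 control tissue samples, for the 28 measured members (rows, by role, with lines between roles) on each of the 25 tissue arrays (columns, by group and replicate number). Hsd17b7, Cyp51, Sqle, Idi1, Mvd and Fdps are red in all 11 tumors and paler in the hyperplasias, Srebf1 is blue in all tumors and paler blue in the hyperplasias, and Insig1 is blue in the tumors.

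Among the mevalonate steps, 5 of 6 members rose in tumors (83.3%, beside 35.0% of all genes) and none fell. Idi1, which isomerizes the isoprenoid building block, had signals of 93.0 to 172 in control tissue (median 121) and of 390 to 723 in tumors (median 540), with no overlap, and its log2 difference was 2.00 ± 0.18 (SE; limma adjusted p = 4.92e-10). Mvd, which makes that building block from mevalonate diphosphate, was below 30 in all 4 control samples by its brightest probe set, at 27.0, 10.8, 18.5 and 7.83, and had signals of 54.1 to 128 in tumors (median 96.8). Its rise was at least 3.18-fold (log2 difference 1.84 ± 0.20, limma adjusted p = 1.03e-08). The dimmer probe set of Mvd reached 38.5 in control sample 3 and rose by 1.44 (adjusted p = 5.47e-08). Fdps, which joins isoprenoid units to farnesyl diphosphate, had signals of 232, 174, 187 and 133 in control tissue and of 494 to 827 in tumors (median 671). Its groups did not overlap, and the log2 difference was 1.76 ± 0.16 (adjusted p = 7.11e-10). Mvk, mevalonate kinase, rose by 0.63 on the log2 scale.

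Hmgcs1, which makes the precursor of mevalonate, rose less, by 0.45 ± 0.16 (limma adjusted p = 0.0137). Its signals in control tissue were 1630, 746, 1133 and 897, and those of tumors, 1123 to 1682 (median 1519), lay within that range in all but tumors 5 and 7. Without control sample 2 or 4 the rise of Hmgcs1 was 0.29 (adjusted p = 0.124) or 0.37 (adjusted p = 0.0650) and was no longer called. One of its dimmer probe sets had 0.40 (adjusted p = 0.107). Pmvk, phosphomevalonate kinase, was at 0.01 (adjusted p = 0.954), the only mevalonate step not called.

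Of the 11 squalene and sterol steps, 8 rose in tumors (72.7%, beside 35.0% of all genes) and none fell. Hsd17b7, a ketoreductase in the demethylation of sterols, had signals of 33.5, 41.7, 55.7 and 34.9 in control tissue and of 182 to 379 in tumors (median 312). Cyp51, lanosterol demethylase, had 87.1, 58.1, 71.9 and 51.4 in control tissue and 288 to 526 in tumors (median 425). Sqle, the epoxidase that starts the conversion of squalene to the first sterol, had 131, 143, 157 and 163 in control tissue and 498 to 808 in tumors (median 630). The lowest tumor was above the highest control sample for each of these 3 genes. The log2 differences were 2.42 ± 0.16 for Hsd17b7, 2.39 ± 0.15 for Cyp51 and 2.03 ± 0.13 for Sqle, with limma adjusted p-values of 2.13e-12, 3.87e-13 and 8.43e-13.

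The other sterol enzymes that rose in tumors did so by smaller amounts. The log2 differences were 0.97 for Ebp, a sterol isomerase, 0.81 for Dhcr7, which catalyses the last reduction to cholesterol in one branch, and 0.64 for Lbr, a nuclear envelope protein with sterol reductase activity. Fdft1, squalene synthase, rose by 0.60 and Lss, which closes the rings of lanosterol, by 0.52. A dimmer probe set of Lss had -0.09 (limma adjusted p = 0.556), and the mean of all its probe sets gave -0.04 (adjusted p = 0.696). That mean takes in a further probe set of Lss that was below 30 on every tissue array. Sc5d, the sterol desaturase before Dhcr7, Tm7sf2, a second sterol reductase, and Nsdhl, which acts beside Hsd17b7, were not called, at -0.60 (adjusted p = 0.0581), -0.23 and -0.12. Sc5d was called lower without tumor 6 (-0.67) or tumor 10 (-0.65) and by a dimmer probe set (-1.08, adjusted p = 1.04e-06).

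**Figure D2:**
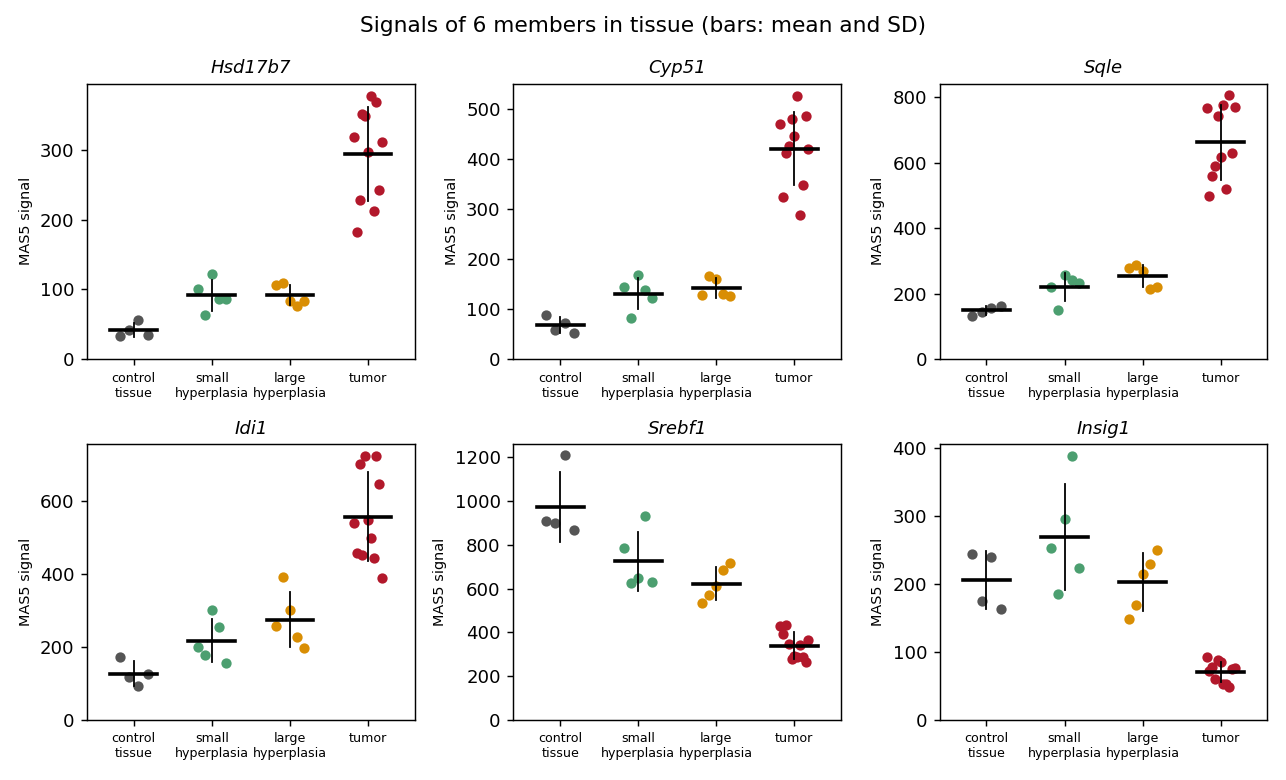
MAS5 signal of Hsd17b7, Cyp51, Sqle, Idi1, Srebf1 and Insig1 (linear axes from 0) in 4 control tissue samples, 5 small hyperplasias, 5 large hyperplasias and 11 tumors; points are samples, horizontal bars means and vertical bars SDs. In the upper row all tumors lie above every other sample, the means of the hyperplasias lie between those of control tissue and tumors, with some samples within the control range, and Insig1 is lower in all 11 tumors than in any other sample.

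The members that control the pathway included none that rose by their brightest probe set, and 2 of 5 that fell in tumors (40.0%, beside 36.8% of all genes). Insig1, the inducible brake on the sterol factors, had signals of 244, 175, 240 and 163 in control tissue and of 48.8 to 91.7 in tumors (median 74.4). All tumors lay below all control samples, the control mean was 2.91 times the tumor mean, and the log2 difference was -1.36 ± 0.17 (limma adjusted p = 8.38e-08). Srebf1 had signals of 907, 902, 1212 and 869 in control tissue and of 265 to 435 in tumors (median 343), again with no overlap, and its log2 difference was -1.49 ± 0.13 (adjusted p = 2.82e-10). Scap had 0.24 (adjusted p = 0.0580), which passed the threshold without any of tumors 4, 6 and 11 or control sample 2, with 0.26, 0.26, 0.27 and 0.33.

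For Scap, Srebf2 and Insig2, the call depended on the probe set. A dimmer probe set of Scap rose by 0.35 (limma adjusted p = 0.0314). The brightest probe set of Srebf2 had signals of 138, 223, 165 and 169 in control tissue and of 115 to 182 in tumors (median 161), which overlapped, with a log2 difference of -0.15 ± 0.17 (limma adjusted p = 0.425). The dimmer probe set had 64.3 to 112 in control tissue (median 85.3) and 118 to 182 in tumors (median 159), without overlap, and rose by 0.75 (adjusted p = 2.82e-05). The mean of the Srebf2 probe sets was higher in tumors by 0.30 (adjusted p = 0.0415). The log2 difference of Insig2 was -0.13 by its brightest probe set (adjusted p = 0.435), whereas a dimmer one rose by 0.67 (adjusted p = 0.000559).

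Among the transport genes, 3 of 6 rose in tumors (50.0%) and 2 fell (33.3%), beside 35.0% and 36.8% of all genes. Stard4, which carries cholesterol between membranes, had 84.9, 57.4, 87.5 and 76.9 in control tissue and 178 to 366 in tumors (median 256), with a log2 difference of 1.58 ± 0.15 (limma adjusted p = 1.92e-09). Tmem97, an endoplasmic reticulum protein that binds the lysosomal transporter Npc1, had 4.03, 24.8, 33.2 and 20.1 in control tissue and 48.5 to 102 in tumors (median 74.5), and rose by 1.37 ± 0.19 (adjusted p = 4.82e-07). Neither gene's tumors overlapped with control tissue. Npc1, which passes cholesterol out of lysosomes, rose by 0.49, and its soluble partner Npc2 fell by 0.38, although a dimmer probe set of Npc2 had -0.12 (adjusted p = 0.506).

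The exporters differed from each other. Abca1 fell by 0.50 ± 0.15 (limma adjusted p = 0.00547), with signals of 1552, 1912, 1910 and 1738 in control tissue and of 860 to 1806 in tumors (median 1195), and the groups overlapped. A dimmer probe set of Abca1 had -0.12 (adjusted p = 0.584). Abcg1 had 296, 174, 246 and 236 in control tissue and 179 to 394 in tumors (median 293), a log2 difference of 0.24 (adjusted p = 0.146) that passed the threshold without tumor 9 (0.30, adjusted p = 0.0448). Across the 11 tumors Abca1 and Abcg1 varied together, with a Pearson r of 0.795 and a Spearman rho of 0.809 (permutation tests, 2-sided, p = 0.0033 and p = 0.00414, adjusted over 5 pairs to 0.0165 and 0.0207). Without the 2 tumors farthest from the median of Abca1 the r was 0.737 (n = 9, exact permutation p = 0.0256, adjusted p = 0.128), which no longer passed the threshold after adjustment.

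**Figure D3:**
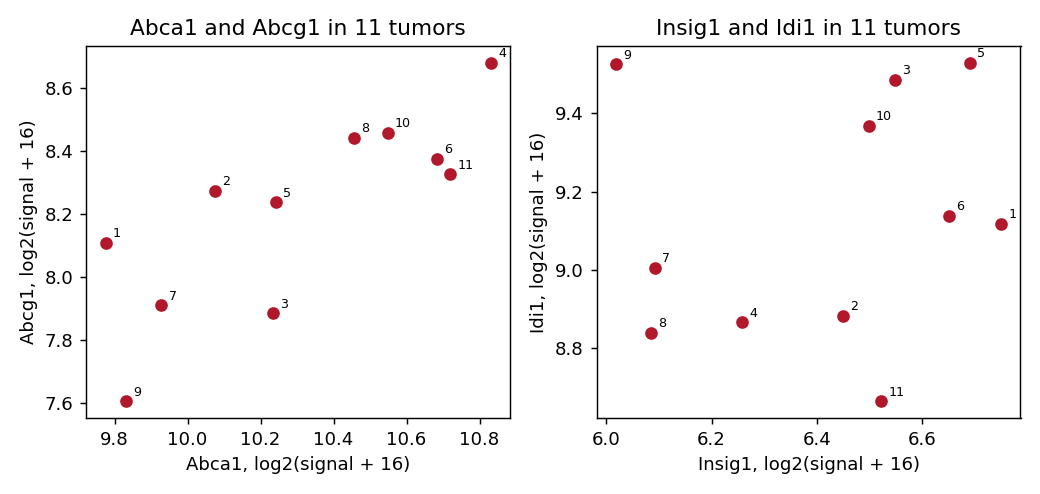
Abca1 against Abcg1 (left) and Insig1 against Idi1 (right) in the 11 tumors, as log2(signal + 16) on both axes; each point is a tumor with its replicate number. Abcg1 is higher in tumors with more Abca1 (r = 0.795), and Idi1 follows no such course with Insig1 (r = 0.171).

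Among tumors, no relation of Insig1 with the enzymes or with Stard4 passed the test. Over the 11 tumors the Pearson r of Insig1 was 0.189 with Hmgcs1, 0.0261 with Sqle, 0.171 with Idi1 and 0.298 with Stard4. The Spearman rho values were 0.136, -0.0364, 0.282 and 0.345 in that order. The adjusted p-values of r were 0.760, 0.935, 0.760 and 0.760 (permutation test, 2-sided). For Hmgcs1 the r turned to -0.124 without the 2 tumors farthest from the median of Insig1, and for the other 3 genes it was 0.0764, 0.416 and 0.0367.

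The makeup of the tissue differed between the groups. The summed signal of 6 adipocyte markers lay between 39981 and 43271 in control tissue, between 19570 and 25920 in small and 15139 and 20206 in large hyperplasias, and between 710 and 6193 in tumors, and all 6 markers fell in tumors (median log2 difference -5.68). None of the 6 was below 30 on every tumor array. Of 8 epithelial markers, 4 rose in tumors, Krt14, Krt5, Trp63 and Cdh1, and the summed signal was 4268 to 6619 in control tissue and 12781 to 16650 in tumors. All 6 proliferation markers rose in tumors, with sums of 200 to 273 in control tissue and 1369 to 1935 in tumors. Of 10 macrophage markers 6 rose in tumors, all 5 endothelial markers fell, and of 2 leukocyte markers tested Ptprc rose. The hyperplasias shared much of this. All 6 proliferation markers rose in both, with sums of 688 to 1292 in small and 1120 to 1776 in large hyperplasias, and so did 5 of 8 epithelial markers, with sums of 8322 to 11614 and 8632 to 11064. Of the endothelial markers 3 fell in small and all 5 in large hyperplasias, of the adipocyte markers 3 and 4. Of the macrophage markers 6 rose in small and 9 in large hyperplasias, and all 3 leukocyte markers measured rose in large ones. In tissue, fewer cells of a type and less RNA per cell cannot be told apart, and the part of these markers in the differences of the members was not tested.

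Lists of neighbouring pathways were counted in the same way in tumors. Of 10 genes of fatty acid synthesis, targets of Srebf1, 8 fell (80.0%) and 1 rose (10.0%). Of all genes 36.8% fell and 35.0% rose, and the median log2 difference of the list was -2.44. Scd1, a desaturase of fatty acids, fell by 3.76 ± 0.32, from 12859 to 16731 in control tissue (median 14597) to 536 to 3408 in tumors (median 911). Fasn, fatty acid synthase, fell by 3.22, and Elovl6, an elongase, by 3.03. The member of the list that rose was Scd2, a second desaturase, at 1.81 ± 0.19 (limma adjusted p = 6.1e-09). The fall of these genes accompanied that of the adipocyte markers, and their dependence was not tested.

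Of 8 tested genes for further sterol steps and the isoprenoid branch, 1 rose (12.5%) and 3 fell (37.5%) in tumors. Of all genes 35.0% rose and 36.8% fell, the latter close to the share of the list. The gene that rose was Msmo1, the methylsterol oxidase that acts between Cyp51 and Nsdhl, with 136 to 183 in control tissue (median 150) and 544 to 882 in tumors (median 758), without overlap, and a log2 difference of 2.13 ± 0.15 (limma adjusted p = 4.9e-12). Fnta and Rabggta, subunits of prenyl transferases, fell by 0.49 and 0.28. Of 15 further genes of sterol transport, oxysterols and liver X receptors, 5 rose (33.3%) and 9 fell (60.0%). The shares of all genes were 35.0% and 36.8%, and the median of the list was -0.60. Vldlr, a lipoprotein receptor, fell by 3.06 and Nr1h3, a liver X receptor, by 2.11, from signals of 178 to 248 in control tissue to 26.7 to 49.2 in tumors. Cyp7b1, which hydroxylates oxysterols, rose by 2.54 ± 0.27, from 24.9 to 34.6 in control tissue to 106 to 524 in tumors.

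Hyperplasias shared the rise of part of the pathway. In large hyperplasias 11 of 28 members rose and 2 fell against control tissue, beside 26.8% and 22.9% of 11763 genes, and the members' median was 0.17 (0.04 over all genes). In small hyperplasias 9 members rose and 2 fell, beside 19.3% and 15.3% of 11594 genes, and the median was 0.15 (0.02 over all genes). Mvd, Idi1, Fdps, Sqle, Cyp51, Lbr, Hsd17b7, Npc1 and Tmem97 were higher in both, and Srebf1 was lower in both. Dhcr7 and Stard4 were called higher in large but not in small hyperplasias, a difference that was not tested. All these comparisons share the 4 control samples. By the ratio of medians large hyperplasias had 4 members higher and 1 lower (11.8% and 7.61% of genes), and small ones 4 and 0 (7.81% and 2.98%).

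Mvd had signals of 82.1, 55.6, 35.2, 43.9 and 42.4 in large hyperplasias, all above control tissue, at least 1.65-fold by its brightest probe set (log2 difference 1.08 ± 0.23, limma adjusted p = 0.000397). The dimmer probe set rose by 0.54 (adjusted p = 0.0269) and overlapped with control tissue. Idi1 had 257, 390, 301, 227 and 197, also without overlap, and rose by 1.02 ± 0.21 (adjusted p = 0.00031). Lbr had 330, 269, 307 and 307 in control tissue and 534, 694, 585, 694 and 579 in large hyperplasias, a rise of 0.98 ± 0.10 (adjusted p = 4.02e-08). Every large hyperplasia was above every control sample for these 3 genes by their brightest probe sets. Dhcr7 had 67.0, 45.8, 44.1 and 67.4 in control tissue and 141, 145, 137, 125 and 85.8 in large hyperplasias, without overlap, and rose by 0.98 ± 0.24 (adjusted p = 0.00139). Tmem97 rose by 0.77 in large hyperplasias (50.7, 50.7, 35.2, 41.4 and 38.9) and by 0.68 in small ones (44.9, 43.8, 46.7, 46.2 and 21.4). Dhcr7 and Tmem97 stand in a list that the study drew from these same arrays, as genes lower without Myc and higher in hyperplasia, so their rise in hyperplasias is not independent evidence.

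Sc5d moved the other way and was the most changed member in large hyperplasias. It had 739, 546, 781 and 709 in control tissue and 131, 123, 472, 465 and 332 in large hyperplasias. All large hyperplasias were lower than all control samples, samples 1 and 2 most, and the log2 difference was -1.34 ± 0.32 (limma adjusted p = 0.00143). In small hyperplasias Sc5d had 408, 433, 420, 427 and 302, again below all control samples, with -0.78 (adjusted p = 0.0683). Srebf1 fell by 0.62 in large hyperplasias, with 533, 573, 611, 685 and 715, and by 0.42 in small ones, with 787, 625, 648, 934 and 630.

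Insig1 was not called in hyperplasias. It had 148, 169, 214, 230 and 250 in large and 253, 185, 295, 388 and 223 in small hyperplasias, overlapping with control tissue in both, with log2 differences of -0.03 ± 0.19 (limma adjusted p = 0.922) and 0.34 ± 0.19 (adjusted p = 0.175). Srebf2 had 298, 186, 185, 118 and 118 in large and 124, 136, 180, 122 and 187 in small hyperplasias by its brightest probe set, with -0.00 and -0.20, neither called, and rose by 0.67 and 0.59 by the dimmer probe set (adjusted p = 0.00103 and 0.00556). Insig2 had 0.23 (adjusted p = 0.283) in large and -0.01 (adjusted p = 0.969) in small hyperplasias by its brightest probe set, neither called. The dimmer probe set of Insig2 that rose in tumors rose by 0.74 and 0.57. The mean of all Insig2 probe sets also rose in large hyperplasias, by 0.44 (adjusted p = 0.0254). The Cyp51 rise was 0.94 in large (128, 166, 160, 129 and 126) and 0.81 in small hyperplasias (143, 81.8, 167, 138 and 123), and that of Sqle 0.71 (278, 287, 269, 213 and 220) and 0.51 (219, 149, 257, 242 and 233).

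Npc2 fell by 0.56 in small hyperplasias, whereas in large ones it had -0.27 (limma adjusted p = 0.0565). In small hyperplasias a dimmer probe set of Npc2 had -0.16 (adjusted p = 0.511), and the mean of all its probe sets was -0.30 (adjusted p = 0.0795), which was not called. That mean takes in a probe set of Npc2 that was below 30 on every tissue array. Npc1 rose by 0.73 in large and 0.36 in small hyperplasias, and Fdps by 0.72 and 0.59. Hsd17b7 rose by 0.92 in large and 0.90 in small hyperplasias by its brightest probe set. Among its dimmer probe sets, 2 had 0.14 and 0.22 in large and -0.16 and 0.15 in small hyperplasias, none of them called, although both lay without overlap above control tissue in tumors. The mean of all Hsd17b7 probe sets was 0.27 (limma adjusted p = 0.0963) in large and 0.26 (adjusted p = 0.146) in small hyperplasias, which ended both calls. This mean, too, takes in a probe set that was below 30 on every tissue array.

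In small hyperplasias a dimmer probe set of Mvd had 0.31 (limma adjusted p = 0.247), and one of Stard4 was called higher at 0.56 (adjusted p = 0.0477). With signals floored at 30 the rises of Mvd and Tmem97 in small hyperplasias were 0.34 (adjusted p = 0.329) and 0.44 (adjusted p = 0.0861) and were no longer called.

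Several calls in hyperplasias changed when a single sample was left out, a step that also leaves fewer samples in a group. In large hyperplasias the rise of Stard4, 0.54 (limma adjusted p = 0.0144), was 0.44 (adjusted p = 0.0667) without control sample 2, and Npc2 was called lower without control sample 3 (-0.33) or large hyperplasia 1 (-0.34). In small hyperplasias the Tmem97 rise was 0.42 (adjusted p = 0.118) without control sample 1, that of Mvd 0.63 (0.0577) without control sample 4, and that of Idi1 0.58 (0.0546) without control sample 3. Fdps had 0.43 (0.0647) without small hyperplasia 4 and 0.47 (0.0813) without control sample 4. Npc1 had 0.26 to 0.37 and Srebf1 -0.31 to -0.39 without any 1 of 4 samples each, which ended those calls (small hyperplasias 2 and 3 and control samples 2 and 4 for Npc1, small hyperplasias 2, 3 and 5 and control sample 3 for Srebf1), so that 1 member in place of 2 was lower. Dhcr7, with 0.43 in small hyperplasias, was called higher without small hyperplasia 1 (0.61).

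**Figure D4:**
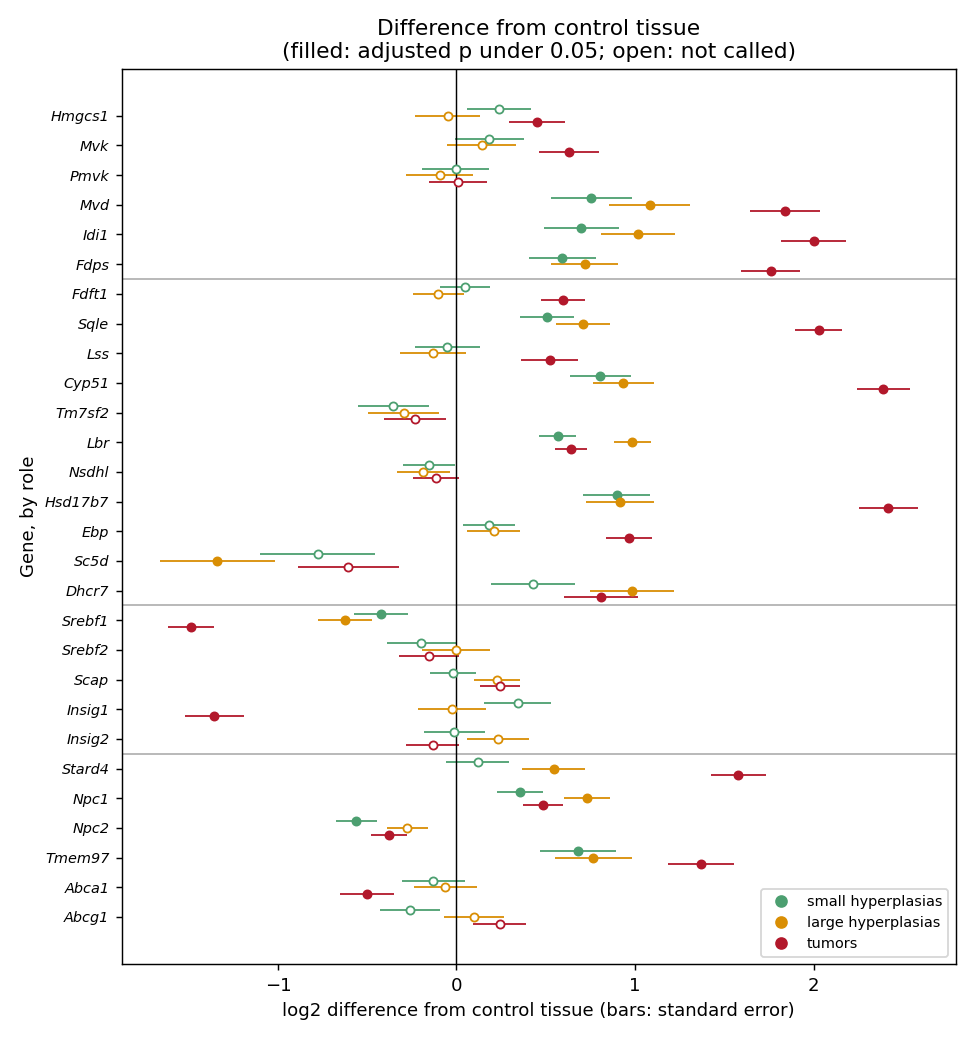
Log2 difference from control tissue of the 28 measured members, by role, in small hyperplasias (green), large hyperplasias (orange) and tumors (red), with standard errors of limma; filled points had an adjusted p under 0.05. Hsd17b7, Cyp51, Sqle, Idi1 and Fdps lie right of zero in all 3 groups and farthest in tumors, whereas Insig1 is at 0.34 in small and -0.03 in large hyperplasias, neither called, and at -1.36 in tumors.

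Tumors differed from large hyperplasias in most of the pathway. Of 28 members 14 were higher in tumors and 6 lower, beside 22.7% and 31.9% of 11747 genes, and the members' median was 0.32 (-0.07 over all genes). By the ratio of medians 6 were higher and 1 lower, beside 5.85% and 9.25% of genes. The largest differences were in Hsd17b7 at 1.50 ± 0.15, Cyp51 at 1.46 ± 0.14, Insig1 at -1.33 ± 0.15 and Sqle at 1.32 ± 0.12, with limma adjusted p-values of 2.24e-08, 8e-09, 1.5e-07 and 5.22e-09. The signals given above did not overlap between tumors and large hyperplasias in any of these 4 genes. Hsd17b7 had 107, 109, 83.5, 76.7 and 84.1 in large hyperplasias, whose highest was below the lowest tumor at 182. Fdps, Stard4 and Idi1 were higher by 1.04, 1.03 and 0.98, Ebp and Mvd by 0.76 each and Fdft1, Lss, Tmem97, Hmgcs1 and Mvk by 0.70, 0.65, 0.60, 0.50 and 0.49. A dimmer probe set of Lss had -0.20 (adjusted p = 0.164).

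Beside Insig1, Srebf1 was lower in tumors than in large hyperplasias by 0.86, Abca1 by 0.44, Insig2 by 0.37, Lbr by 0.34 and Npc1 by 0.25. The dimmer probe sets of Abca1 had -0.25 and -0.09, and the mean of all 3 was -0.26 (limma adjusted p = 0.154), which was not called. Lbr and Npc1 were thus higher in large hyperplasias than in tumors, and higher in tumors than in control tissue. Sc5d was higher in tumors than in large hyperplasias by 0.73 (limma adjusted p = 0.0199), but lower by the dimmer probe set that fell in tumors against control tissue, at -0.48 (adjusted p = 0.00718). The dimmer probe sets of Insig2 had -0.07 each. Without large hyperplasia 1 or 2 the Sc5d difference was 0.50 or 0.48 (adjusted p = 0.112 and 0.117), and that of Insig2 was -0.30 or -0.34 (adjusted p = 0.100 and 0.0676), so these calls ended. The call of Npc1 ended without any 1 of tumors 1, 2, 3, 6, 7, 8 and 9 or large hyperplasias 2, 3 and 4, at -0.19 to -0.25. Not called were Dhcr7, Srebf2, Npc2, Scap, Tm7sf2, Nsdhl, Pmvk and Abcg1, with log2 differences from -0.17 to 0.14 by their brightest probe sets. A dimmer probe set of Npc2 was lower by 0.46 (limma adjusted p = 0.00818).

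Sorted basal cells were compared apart, because their RNA was amplified with NuGEN kits, while tissue RNA was labelled by the one-cycle method of Affymetrix. Median signals were 13.2 to 18.8 on the control and 15.0 to 19.7 on the Myc-deficient arrays. The signal ratio of the 3' to the 5' control probe set of Gapdh was 3.46 to 5.19 and 3.83 to 6.11 there. On tissue arrays it was 0.72 to 0.99. The part of this difference in the values of the members was not tested. Myc had signals of 1479, 1677 and 1869 in the pools of control basal cells and of 42.3, 141 and 428 in those of Myc-deficient cells, a log2 difference of -3.40 ± 0.54 (limma p = 3.4e-05 unadjusted, adjusted p = 0.251). Neither labels nor methods say whether its probes lie in the deleted part of the gene. In these cells Adipoq, Cidec, Retn, Lipe and Pparg, 5 of the 6 adipocyte markers measured, were below 30 on every array, and so were Ptprc and Cd3e. Fabp4 was not, and the adipocyte markers summed to 1171 to 3429 in control and 1302 to 4244 in Myc-deficient cells. Cd79a was below 30 on every control array but not on every Myc-deficient one. Macrophage markers summed to 108 to 771 and 375 to 629, and endothelial markers to 93.2 to 357 and 52.4 to 593. The share of other cells in the pools was not tested. The summed epithelial markers were 16859 to 17978 in control and 18954 to 26178 in Myc-deficient cells, and the 6 proliferation markers summed to 1218 to 1890 and 187 to 1171. The median log2 difference of the proliferation markers was -1.55, none was called, and all 6 had an unadjusted p under 0.05; their part in the values of the members was not tested.

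Without Myc, the cholesterol genes showed no called difference. Of the 25 members tested (Fdps, Tm7sf2 and Abcg1 did not reach 30 in either group median) 0 were called, as were 0% of 9512 genes, of which 687 had an unadjusted p under 0.05 with limma. The members' median log2 difference was -0.07, and that of all genes was -0.03. By the rule of the study's methods, a ratio of medians over 2, 2 members were lower and 0 higher, beside 9.33% and 5.60% of genes. These 2, Dhcr7 and Tmem97, were also those with an unadjusted p under 0.05 by the brightest probe set, and both stand in the list that the study drew from these arrays.

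**Figure D5:**
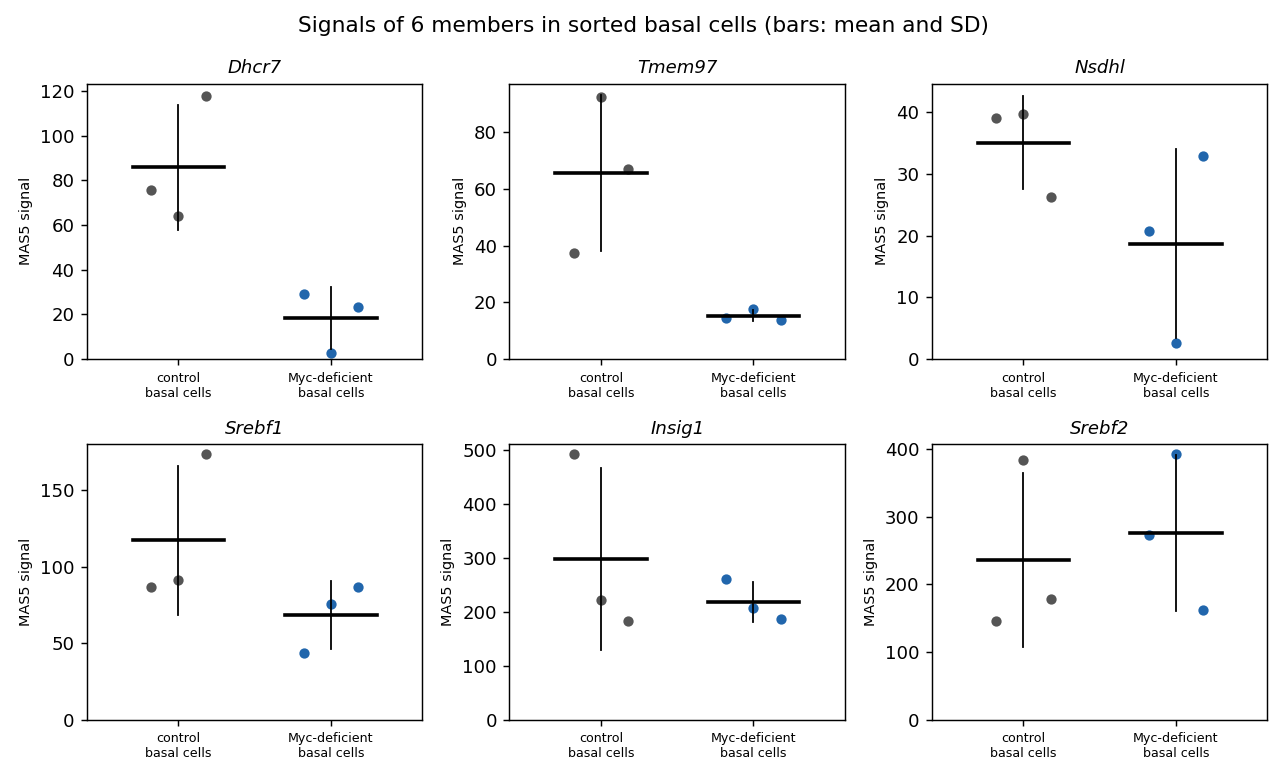
MAS5 signal of Dhcr7, Tmem97, Nsdhl, Srebf1, Insig1 and Srebf2 (linear axes from 0) in 3 pools of control and 3 pools of Myc-deficient basal cells, each gene by its brightest probe set there; points are pools, horizontal bars means and vertical bars SDs. The pools do not overlap in Dhcr7, Tmem97 and Srebf1, which with 3 pools a group arises easily by chance. No member had an adjusted p under 0.05.

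Dhcr7 had signals of 75.8, 63.9 and 117 in control basal cells and of 29.2, 2.52 and 23.4 in Myc-deficient cells, all 3 below the background cut-off of 30. The pools did not overlap, Dhcr7 was at least 2.76-fold lower, and the log2 difference was -1.63 ± 0.47 (limma p = 0.00401 unadjusted, adjusted p = 0.589). Tmem97 had 37.3, 92.3 and 67.1 in control and 14.6, 17.5 and 13.9 in Myc-deficient cells, at least 2.04-fold lower, with -1.32 ± 0.43 (p = 0.0086 unadjusted, adjusted p = 0.637). Nsdhl had -0.65 ± 0.46 (adjusted p = 0.830) with 39.0, 39.8 and 26.3 in control and 20.8, 2.54 and 32.8 in Myc-deficient cells, which overlapped. Srebf1 had 86.8, 91.6 and 173 in control and 43.8, 75.3 and 86.6 in Myc-deficient cells, just without overlap, with -0.63 ± 0.42 (adjusted p = 0.83).

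None of the genes that rose most in tumors was called between the sorted populations, and neither was any other of the 9512 genes tested, Myc included. The lack of calls is therefore no trait of these genes. Sqle had 160, 298 and 136 in control and 190, 335 and 145 in Myc-deficient cells, and its log2 difference was 0.16. Idi1 and Hmgcs1 had -0.08 and -0.07, Cyp51 -0.30, Hsd17b7 -0.36, Mvd 0.21 and Stard4 0.11. Insig1 had 492, 221 and 183 in control and 260, 208 and 187 in Myc-deficient cells, with -0.31 ± 0.39, and Srebf2 had 0.25 ± 0.42 by its brightest probe set in these cells, which is the dimmer one in tissue. The other probe set of Srebf2 had 198, 152 and 70.2 in control and 390, 367 and 299 in Myc-deficient cells, without overlap, and was higher by 1.33 ± 0.38 (limma p = 0.00444 unadjusted, adjusted p = 0.589). The dimmer probe sets of Insig2 had 0.99 (p = 0.0487 unadjusted in limma, adjusted p = 0.781) and 0.51 (adjusted p = 0.818), the latter without overlap of the pools. By brightest probe sets, the highest value was that of Sc5d, 0.55, followed by Fdft1 at 0.54, whose pools did not overlap (adjusted p = 0.796). The remaining members, Ebp, Npc1, Scap, Lbr, Abca1, Lss, Pmvk, Npc2, Insig2 and Mvk, had values from -0.41 to 0.25 by theirs. With 3 pools a group the standard errors of the 25 members were 0.26 to 0.49. By brightest probe sets, 3 members were lower and 1 higher without overlap of the pools. With so few pools a lack of overlap arises easily by chance, and its share over all genes is not given here.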

How the data were processed

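Each of 25 tissue samples and 6 pools of sorted cells had been measured on 1 Affymetrix array of the mouse genome. The deposited values are intensities, linear MAS5 signals that the authors computed in Affymetrix Expression Console, in a version not stated in the sources used, and scaled to a mean of 100 without the lowest and highest 2% of an array. On every array this mean was checked and found at 100. Groups were taken from the sample titles. Of 45101 probe sets 64 controls were left out. The array's annotation gave 1 symbol for 34945, several for 932 and none for 9160 of the remaining 45037. Where a gene had several probe sets, the brightest one by mean log2 signal in a fit stood for it. No pair of arrays was identical, and the closest pair had a Spearman correlation of 0.966.

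Limma 3.58.1 in R 4.3.3 (lmFit, contrasts.fit, eBayes with trend) was run on log2(signal + 16), separately for the 25 arrays of tissue and the 6 of sorted cells. A fold against a group with all arrays below 30 is a lower bound, taken against 30. The procedure was tested on simulated data. Pairs of members were correlated over tumors with 1e+05 resamples, or all orders for n = 9. The members, gene lists and the rule for the genes described (the largest called differences of each comparison, and always Srebf2, Srebf1, Insig1, Tmem97 and Dhcr7) were chosen with earlier results of these data known. Some genes of the pathway are not reported here. The number of arrays limits the precision.

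Replicate numbers were checked as pairs on the deviations from group means. The Myc-deficient pools correlated with the control pools of the same number at 0.245, 0.275 and 0.344 over 13095 probe sets, so the number may pair them. The methods name no pairing, and all values given for sorted cells come from the fit without it. In 1 alternative the number is a block. Among tissue samples the correlations ran from -0.19 to 0.17 over 27 pairs, and the numbers were taken as names only. The other alternatives were no offset, signals floored at 30, quantile normalization, no filter or one on mean signals, a fit restricted to the 2 groups compared, the methods' t-test, the methods' rule of a ratio of medians over 2, the mean of all probe sets of a gene, moderation without trend, and leaving out each sample in turn.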

Additional observations from a re-analysis of the deposited data

Results flagged for a closer look

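Of 84 values of members in groups of 4 or 5 tissue samples, 6 had a sample far from the rest by Dixon's test, where chance alone gives about 4.2 (1 in 20). Small hyperplasia 5 was the lowest in Sc5d, at a signal of 301.8 (408 to 433 in the other 4), and in Tmem97, at 21.4 (43.8 to 46.7), and the highest in Scap, at 444.2 (297 to 325). Large hyperplasia 5 was the lowest in Dhcr7, at 85.8 (125 to 145). Control sample 3 was the highest in Srebf1, at 1212 (869 to 907), and the lowest in Npc2, at 3016 (3514 to 3605).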

How the results depend on the processing

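Counts of called members (higher and lower) are given where they moved by over 1.5 times. Under the methods' rule of a ratio of medians over 2, they were 8 and 2 in tumors, 4 and 1 in large hyperplasias, 4 and 0 in small hyperplasias and 6 and 1 in tumors against large hyperplasias, and in Myc-deficient cells 2 were lower. The methods' t-test gave 3 higher in small and 1 lower in large hyperplasias, and in small hyperplasias 1 was lower without a filter and with the replicate block; the block changed no call in sorted cells. Leaving out 1 sample gave 15 to 17 higher and 4 to 5 lower in tumors, 10 to 11 and 2 to 3 in large, 6 to 10 and 1 to 2 in small hyperplasias, 13 to 14 and 4 to 6 in tumors against large hyperplasias, and 0 in sorted cells. With the mean of all probe sets, Lss turned to -0.0358 and Srebf2 to 0.30 in tumors. Probe sets of 1 gene differ there by construction, and for Lss, Hsd17b7 and Npc2 the mean takes in a probe set below 30 on every tissue array. Without the 2 farthest tumors the r of Insig1 with Hmgcs1 was -0.124 and that of Abca1 with Abcg1 0.737 with an adjusted p of 0.128. Of 3002 values of single members under all alternatives, 2869 kept their call or stayed uncalled (91 of them uncalled values whose sign turned), 106 lost and 25 gained a call, and 2 reversed; for the others the cause was not tested. Signals near 30 limit Mvd and Tmem97 in control tissue, and Dhcr7, Tmem97 and Nsdhl in sorted cells.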
